A study of Caenorhabditis elegans with 4 samples.

Results

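CEH-30::GFP regions on chromosome II are the 1082 regions that the authors' combined list places on that chromosome, of 6672 in all. The rule that chose them used the chromosome name, and no q-value or width. CEH-30 is a homeodomain transcription factor of Caenorhabditis elegans. Late embryos of strain OP120 were crosslinked with 2% formaldehyde, and chromatin was precipitated with a polyclonal anti-GFP serum raised in goat. The labels name 2 samples of precipitated DNA and 2 of input DNA, all labelled hermaphrodite and grown at 20 °C. Their genotype was unc119(ed3) with the transgene wgIs120(ceh-30::TY1 EGFP FLAG;unc119), so all 4 samples carried the same tagged transgene, introduced by biolistic transformation, in an unc-119 mutant background. None of the 4 samples lacks the tag or the transgene, so binding of the tagged protein and other recovery by the antibody cannot be told apart. Whole embryos were used, and the list does not show which cells a region comes from.

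CEH-30 belongs to the Bar family of homeodomain proteins. It is known for protecting the CEM neurons, a male-specific class of head sensory neurons, from the programmed cell death that removes them in hermaphrodites. Chromatin immunoprecipitation recovers DNA crosslinked to a protein, and a caller such as PeakSeq marks stretches where precipitated DNA exceeds input DNA. Autosomes of the worm have a central domain with many essential and broadly expressed genes and with little recombination. It is flanked by arms that recombine more and hold more repeats and more fast-evolving gene families. The question for chromosome II was how the regions are spread over its left arm, centre and right arm.

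Each region is listed with its borders and a q-value, which is a p-value corrected for the number of tests, and 1 value stands for both replicates. No error between replicates could be computed, the depth behind a region is unknown, and no test between zones was run. Intervals below are 95% intervals for counting error only. Neighbouring regions are not independent, and the intervals may be too narrow for that reason. Strength is the −log10 of the authors' q-value. It is used only to rank and describe regions within the list. By midpoint, the left arm ended at 4.879 Mb and the right arm began at 12.020 Mb, and the last region, which ended at 15268384, was taken as the end of the span. All positions are 1-based and on WormBase release WS180. No annotation of that release was at hand, so genes, exons and sequences under the regions were not analysed here.

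The centre and the right arm of chromosome II were both more densely filled with CEH-30::GFP regions than the left arm. The left arm held 240 regions, or 49.2 per Mb (exact Poisson interval 43.2 to 55.8). The centre held 602 regions, or 84.3 per Mb (77.7 to 91.3), which is 1.71 times the density of the left arm. In the right arm the number was again 240, on a shorter stretch, giving 73.9 per Mb (64.8 to 83.8) and 1.50 times the density of the left arm. The interval of the left arm did not overlap either of the others, while those of the centre and the right arm overlapped.

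As a share of the chromosome's regions, the left arm held 22.2% (exact binomial interval 19.7% to 24.8%) on 32.0% of the span. The centre held 55.6% (52.6% to 58.6%) on 46.8% of the span. For the right arm the share was 22.2% on 21.3% of the span. Counted in bases, the regions covered 0.862% of the left arm, 1.77% of the centre and 1.62% of the right arm. The arms were thus unlike each other, and the right arm lay nearer to the centre than to the left arm on both scales. Regions joined across gaps of up to 2000 bp brought the right arm to 1.11 times and the centre to 1.10 times their share of the span, against 1.04 and 1.19 times with regions counted as listed.

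**Figure D1:**
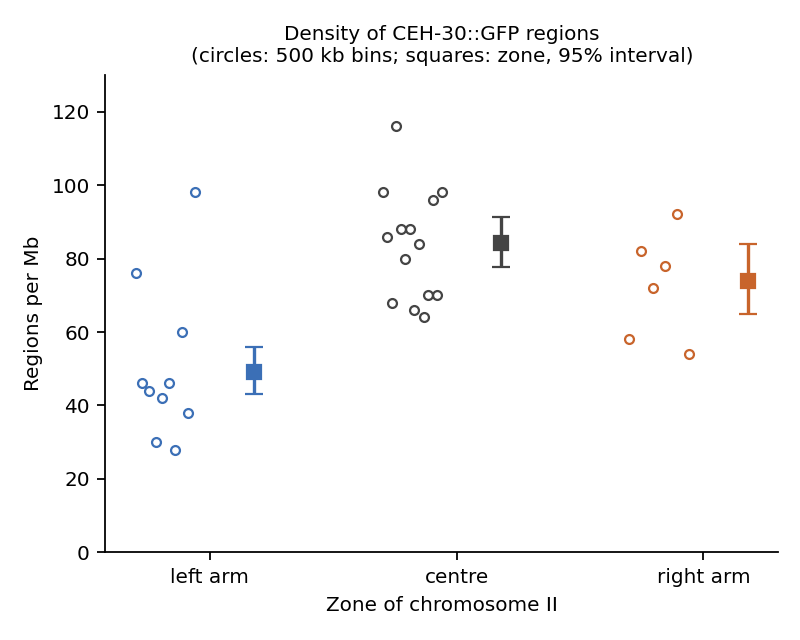
Regions per Mb in the 3 zones of chromosome II. Circles are 500 kb bins placed by their middle, squares the whole zone with its 95% Poisson interval; most left-arm bins lie below every bin of the centre, with the exceptions near the 2 ends of that arm.

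Along the chromosome, the low density of the left arm lay in its interior. Over 30 full bins of 500 kb, the median was 35.5 regions per bin. The 3 poorest bins were at 3.0 to 3.5 Mb with 14 regions, at 1.5 to 2.0 Mb with 15 and at 4.0 to 4.5 Mb with 19, all in the left arm. The first bin of the chromosome held 38 regions. The bin from 4.5 Mb, which crosses the border, held 49, of which 35 lay on the left-arm side. Leaving that bin aside, the left-arm bins ran from 14 to 38 regions.

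In the centre, the 14 bins ran from 32 to 58 regions, with a median of 42.5. The richest bin of the chromosome, at 6.5 to 7.0 Mb, held 58 regions, and a single crowded stretch described below supplied 19 of them. The next richest, with 49 regions each, were the bin across the left border, that at 5.0 to 5.5 Mb and that at 11.5 to 12 Mb. The 6 full bins of the right arm ran from 27 to 46, with a median of 37.5, and 2 of the 29 regions in the bin from 12 Mb lay on the side of the centre. A count of 35 in 1 bin has an exact Poisson interval of 24.4 to 48.7, which spans all full bins of the centre and the right arm except those with 49 and 58.

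The 4 longest stretches without a region lay in the left arm. Of the 5 gaps above 100 kb on the chromosome, 4 were in the left arm, 1 in the centre and 0 in the right arm. Such gaps numbered 0 on I, 2 on III, 12 on IV, 22 on V and 8 on X. Above 50 kb, chromosome II had 24 gaps in the 4.88 Mb of the left arm, 18 in the 7.14 Mb of the centre and 6 in the 3.25 Mb of the right arm. The longest, of 230.6 kb, ran from 1819397 to 2050026. It was followed by 175.7 kb at 3129486 to 3305173, 141.6 kb at 943395 to 1085040 and 110.2 kb at 2571031 to 2681230. In the centre the longest gap was 105.0 kb, at 9774922 to 9879901, and in the right arm it was 78.8 kb, at 14063276 to 14142087. The left arm stayed the sparsest without the gaps above 100 kb, which were taken from this same list. Gaps of 50 to 100 kb were kept in. Without its 4 long gaps, which sum to 658.2 kb, the left arm held 56.9 regions per Mb, below 73.9 in the right arm and 85.6 in the centre without its own long gap.

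Strong regions bordered some of these gaps. A region of the left arm at 942464 to 943394, with a strength of 30.2, was the last before the gap of 141.6 kb. Another region, at 2570435 to 2571030 with a strength of 20.7, was the last before the gap of 110.2 kb. On the far side of these gaps the regions had strengths of 3.96 and 2.31. By contrast, the longest gap lay between regions with strengths of 2.37 and 2.05, and that of 175.7 kb between 3.51 and 3.41. The gap of 105.0 kb in the centre lay between 10.7 and 4.51. A gap is a stretch with no region in the list, and the reads under it were not analysed here.

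Median strengths of the zones lay within overlapping intervals. The median strength was 3.66 in the left arm (interval of the median 3.40 to 4.01), 3.50 in the centre (3.35 to 3.72) and 3.80 in the right arm (3.30 to 4.13). The upper quartile was 5.43 in the left arm, 5.55 in the centre and 6.67 in the right arm. For comparison, the median was 3.58 over all of chromosome II and 3.44 over the 5 other chromosomes.

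The share of strong regions was highest in the right arm, though within overlapping intervals. Among all 6672 regions, the best 10% of the q-values reached up to 4.78e-10, a strength of 9.32. Of the regions of chromosome II, 124 (11.5%) were in that class. By zone they were 38 of 240 in the right arm (15.8%, exact binomial interval 11.5% to 21.1%), 26 of 240 in the left arm (10.8%, 7.20% to 15.5%) and 60 of 602 in the centre (9.97%, 7.69% to 12.6%). The left arm and the centre lay close to the share of the whole list. A single bin, at 14 to 14.5 Mb, supplied 14 of the 38, and without it the share of the right arm was 12.4% (8.09% to 17.8%). In the centre, the bin at 11.5 to 12 Mb supplied 12 of the 60. In the left arm, the first bin of the chromosome supplied 7 of the 26. Shares without those bins were not computed, so the 12.4% has no like value in the other zones. Just inside the limit was the region at 2752549 to 2752857, and just outside was that at 1323344 to 1323834 (q = 5.68e-10).

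The share of the centre was lower at smaller q-values. Of the 400 regions with q-values from 0.001 to 0.01, 57.8% lay in the centre and 20.8% in the right arm. Of the 351 regions from 1e-05 to 0.001, 56.7% lay in the centre and 19.7% in the right arm. Of the 231 regions from 1e-10 to 1e-05, 54.1% lay in the centre and 23.8% in the right arm. Of the 100 regions below 1e-10, 47.0% lay in the centre, 33.0% in the right arm and 20.0% in the left arm. The left arm held between 20.0% and 23.6% in all 4 classes of q-value. No intervals were computed for these shares.

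**Figure D2:**
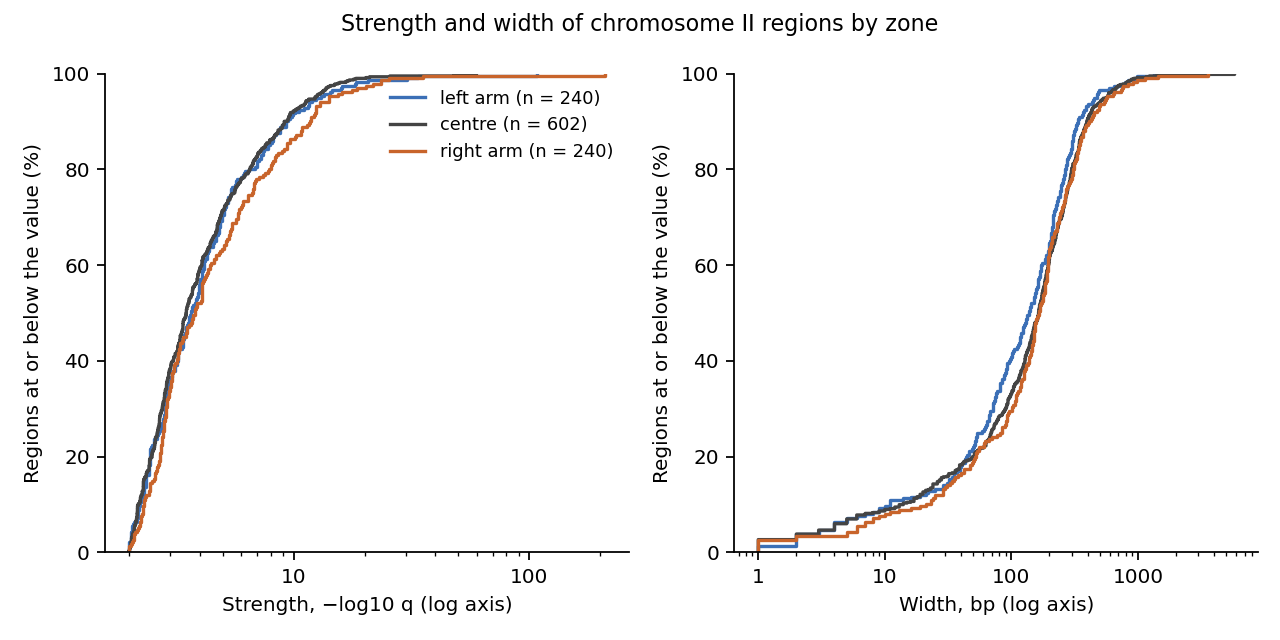
Cumulative share of regions by strength (left, −log10 q, log axis) and by width (right, bp, log axis) in the 3 zones. The right arm had an upper quartile of 6.67 against 5.43 and 5.55 in the left arm and the centre and a 90th percentile of 11.7 against 9.34 and 9.13. Regions of 20 to 99 bp made up a larger share of the left arm than of the other zones.

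The strongest region of chromosome II lay in the right arm at 14404776 to 14408337. It was 3562 bp wide, had a q-value of 4.77e-211 and ranked second of all 6672 regions. A single other region had its midpoint within 5 kb, at 14409478 to 14410315, with a strength of 7.89. The same 500 kb bin held the next 3 regions of that arm by strength. The first of them lay at 14337739 to 14339187, with a strength of 35.5 and no other midpoint within 5 kb. The next, at 14249399 to 14250544 with 25.3, had a neighbour of 23.6 at 14251183 to 14251924. These 4 regions of 1146, 742, 1449 and 3562 bp stood between 14249399 and 14408337.

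In the left arm, the strongest region was at 2221228 to 2222210, 983 bp wide and with q = 3.41e-108. It closed a group of 3 whose middle member, at 2219860 to 2220644, had a strength of 18.2 and whose first, of 126 bp, had 2.51. The second strongest, at 1327968 to 1328805, reached 33.6. It ended a group of 5 regions that began at 1315622 and held another of the 20 strongest, at 1320447 to 1320810 with 18.3. Next came the region at 942464 to 943394, beside the gap described above.

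In the centre, the 3 strongest regions formed a single group at its right-hand side. They lay at 11755928 to 11757160, at 11759145 to 11759648 and at 11761606 to 11762455, with strengths of 59.7, 47.8 and 51.6. Their group of 5 regions spanned 7.74 kb, of which 37.2% was covered, and its outer members were weak, at 2.07 and 3.46. The fourth strongest of the centre, at 5844548 to 5845536, had a strength of 25.6. Of the 10 strongest regions of chromosome II, 3 lay in the left arm, 4 in the centre and 3 in the right arm, and 9 had another midpoint within 5 kb. Of the 100 strongest, 60 had one, which is near the share of all regions given below.

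Regions of the left arm were somewhat narrower. The median width was 138.5 bp in the left arm (interval of the median 115 to 162 bp), 164 bp in the centre (148 to 175 bp) and 165.5 bp in the right arm (147 to 187 bp). The intervals overlapped. Regions of 20 to 99 bp made up 28.3% of the left arm, 20.9% of the centre and 20.0% of the right arm. Regions under 20 bp were 125 of 1082 (11.6%), against 11.8% in the whole list, and their share was 12.1% in the left arm, 12.1% in the centre and 9.58% in the right arm. Of these, 25 were 1 bp wide.

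At the upper end, 100 regions (9.24%) were 400 bp wide or more, against 11.2% in the whole list. The share was 6.67% in the left arm (exact binomial interval 3.86% to 10.6%), 9.63% in the centre (7.40% to 12.3%) and 10.8% in the right arm (7.20% to 15.5%). Only 9 regions reached 1 kb, and they were of 2 kinds. The 3 in the right arm had strengths of 25.3, 35.5 and 210.3, and 2 in the centre, at 11546482 to 11547642 and at 11755928 to 11757160, had 20.3 and 59.7. The other 4 were weak for their width. One lay in the left arm at 3834716 to 3836054, with a strength of 3.83 over 1339 bp. The remaining 3 were neighbours in the centre, between 7272579 and 7282723, with strengths of 3.59, 4.13 and 2.23.

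Wider regions were stronger in each zone. Over the 1082 regions, strength and width had a Spearman rho of 0.65 and a Pearson r of 0.54. Within the zones rho was 0.68 in the left arm, 0.62 in the centre and 0.69 in the right arm. Pearson's r was 0.58, 0.36 and 0.88, and without the strongest region of each zone it was 0.65, 0.34 and 0.81. The same caller set both values from the same reads, so these are descriptions with no p-value. At widths of 200 to 399 bp the median strength was 6.21 in the left arm, 5.81 in the centre and 6.75 in the right arm. From 100 to 199 bp the medians were 3.41, 3.31 and 3.27. At 400 to 999 bp they were 8.76 over 15 regions, 9.39 over 53 and 12.4 over 23. At 20 to 99 bp the medians were 2.91, 2.70 and 2.89, and under 20 bp they were 2.45, 2.69 and 2.89. At like width, then, the right arm had the highest median from 200 bp up and under 20 bp, and not in the classes between. No intervals were computed for these medians.

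**Figure D3:**
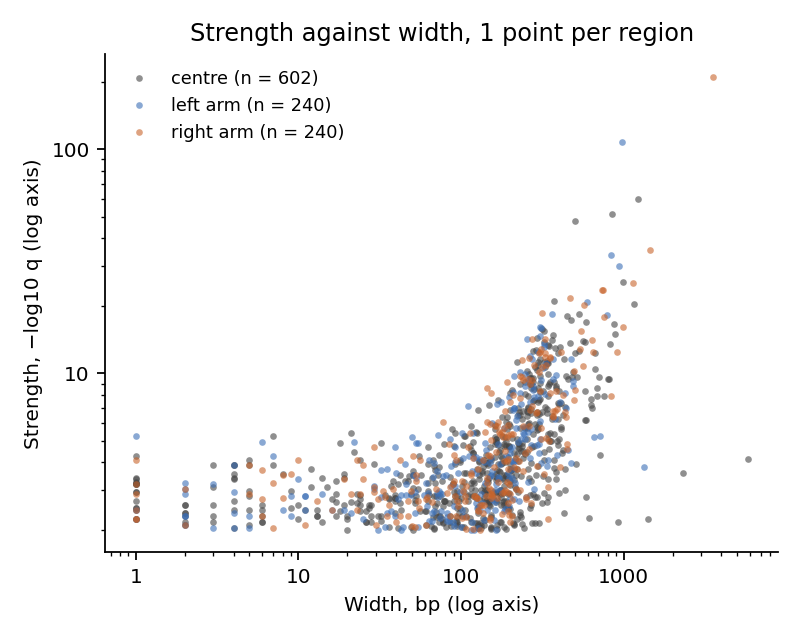
Strength (−log10 q, log axis) against width (bp, log axis) for the 1082 regions of chromosome II, coloured by zone. Strength rises steeply from about 200 bp up in all zones, and the 4 wide, weak regions stand apart at the lower right with strengths of 2.23 to 4.13.

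Regions lay closer together in the centre than in the arms. On the chromosome, 664 of the 1082 regions (61.4%) had another midpoint within 5 kb, against 60.1% in the whole list. The share was 67.4% in the centre (exact binomial interval 63.5% to 71.2%), 56.3% in the right arm (49.7% to 62.6%) and 51.3% in the left arm (44.7% to 57.7%). The interval of the centre lay above that of the left arm and only just above that of the right arm, at 63.5% against 62.6%. Having a neighbour is mutual, so regions are not independent in this measure. The intervals are likely too narrow, and the separation from the right arm should not be relied on. Within 2 kb the shares were 45.8%, 32.1% and 27.5%, in the same order. Such shares follow density as well as grouping. The median distance to the nearest midpoint was 4.82 kb in the left arm, 2.33 kb in the centre and 3.44 kb in the right arm. Divided by the mean spacing of each zone, which was 20.3, 11.9 and 13.5 kb, it came to 0.237, 0.196 and 0.254. On that scale the zones were closer to each other, with the centre still the lowest. Among regions with a q-value under 0.001, the shares within 5 kb were 49.1% in the centre, 48.4% in the right arm and 45.5% in the left arm.

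**Figure D4:**
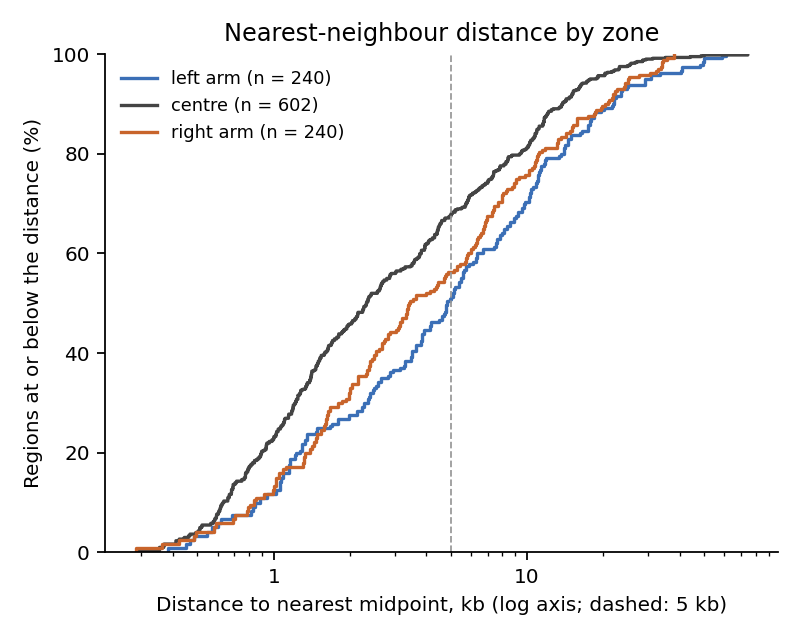
Cumulative share of regions by distance to the nearest other midpoint (kb, log axis) in the 3 zones of chromosome II. At the dashed line, 5 kb, the curves stand at 67.4% in the centre, 56.3% in the right arm and 51.3% in the left arm.

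Regions with a close neighbour had the higher median strength in the left arm and the lower in the centre and the right arm. No intervals were computed for these medians. In the left arm, regions with a neighbour within 5 kb had a median strength of 3.84, against 3.44 for the others. In the right arm the medians were 3.54 with a neighbour and 4.09 without. In the centre they were 3.40 and 3.60. Median widths with and without a neighbour were 161 and 115 bp in the left arm, 169.5 and 147 bp in the centre and 160 and 167 bp in the right arm. Over the chromosome, 11.3% of the regions with a neighbour and 11.7% of those without were among the best 10% of the list. With and without a neighbour, these shares were 13.0% and 8.55% in the left arm and 9.61% and 10.7% in the centre. In the right arm they were 14.8% and 17.1%. Consecutive regions had nearly unrelated strengths, with a Spearman rho of 0.09 over 1081 pairs.

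Runs of regions with consecutive midpoints no more than 5 kb apart gave 219 clusters, which held the 664 regions with such a neighbour, and 418 regions stood alone. With a limit of 2 kb there were 165 clusters, of up to 14 regions, and with 10 kb there were 225, of up to 21. At 5 kb most clusters were small. There were 116 pairs, 78 clusters of 3 or 4 regions, and 25 of 5 or more. The centre held 128 clusters (17.9 per Mb), the right arm 44 (13.5 per Mb) and the left arm 47 (9.63 per Mb). These came from 602, 240 and 240 regions, in the same order. Counts by zone, here and for the larger clusters and crowded windows below, follow the density of regions as well as grouping. Of the 25 clusters of 5 or more regions, 17 were in the centre, 5 in the right arm and 3 in the left arm. No cluster of the left arm had more than 5 members. On a fixed grid of 50 kb windows, 9 windows held 10 or more regions, 7 in the centre, 2 in the right arm and 0 in the left arm.

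The largest cluster lay in the centre at 6821938 to 6848351. Its 19 regions were spread over 26.4 kb, of which they covered 16.2%. Their strengths ran from 2.17 to 9.39 with a median of 3.14, and 1 of them, the last, at 6847900 to 6848351, was among the best 10% of the list. The second strongest, at 6827263 to 6827889, had 7.22. This was a long row of mostly weak regions of 2 to 627 bp.

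The second cluster had a similar extent and stronger members. It held 16 regions over 25.6 kb at 10538063 to 10563686, with strengths from 2.14 to 21.0 and a median of 4.16. Its strongest member, at 10563315 to 10563686, was the last of the row. The next were at 10551650 to 10552351 with 9.67 and at 10541929 to 10542198 with 8.94. None of its members was narrower than 104 bp.

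Clusters of 10 regions came in contrasting forms. That at 8473031 to 8485792 was compact, with 17.4% of its 12.8 kb covered and a median strength of 5.20. It peaked in its interior, at 12.4 for the region 8478072 to 8478738 and 11.1 for 8480297 to 8480641. That at 7267119 to 7287419 held the 3 wide, weak neighbours named above, of 2313, 5807 and 1421 bp, and 57.5% of its 20.3 kb was covered. No member exceeded a strength of 4.13, and the widest region of the chromosome, at 7275106 to 7280912, ranked 433 of 1082 by q-value. The gap on either side of that region was under 400 bp. Whether such neighbours are separate sites or a block that the caller divided was not tested.

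The largest cluster of the right arm, at 12785110 to 12800268, had 9 regions and the highest median strength of the 5 largest, 8.02. Its members at 12798592 to 12799583, 12787625 to 12788271 and 12800012 to 12800268 reached 16.0, 12.4 and 9.39. All 3 were among the best 10% of the list. Others were as weak as 2.23. At the far left end of the chromosome a region of 718 bp stood at 128 to 845, with a strength of 5.24 and no neighbour within 5 kb.

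**Figure D5:**
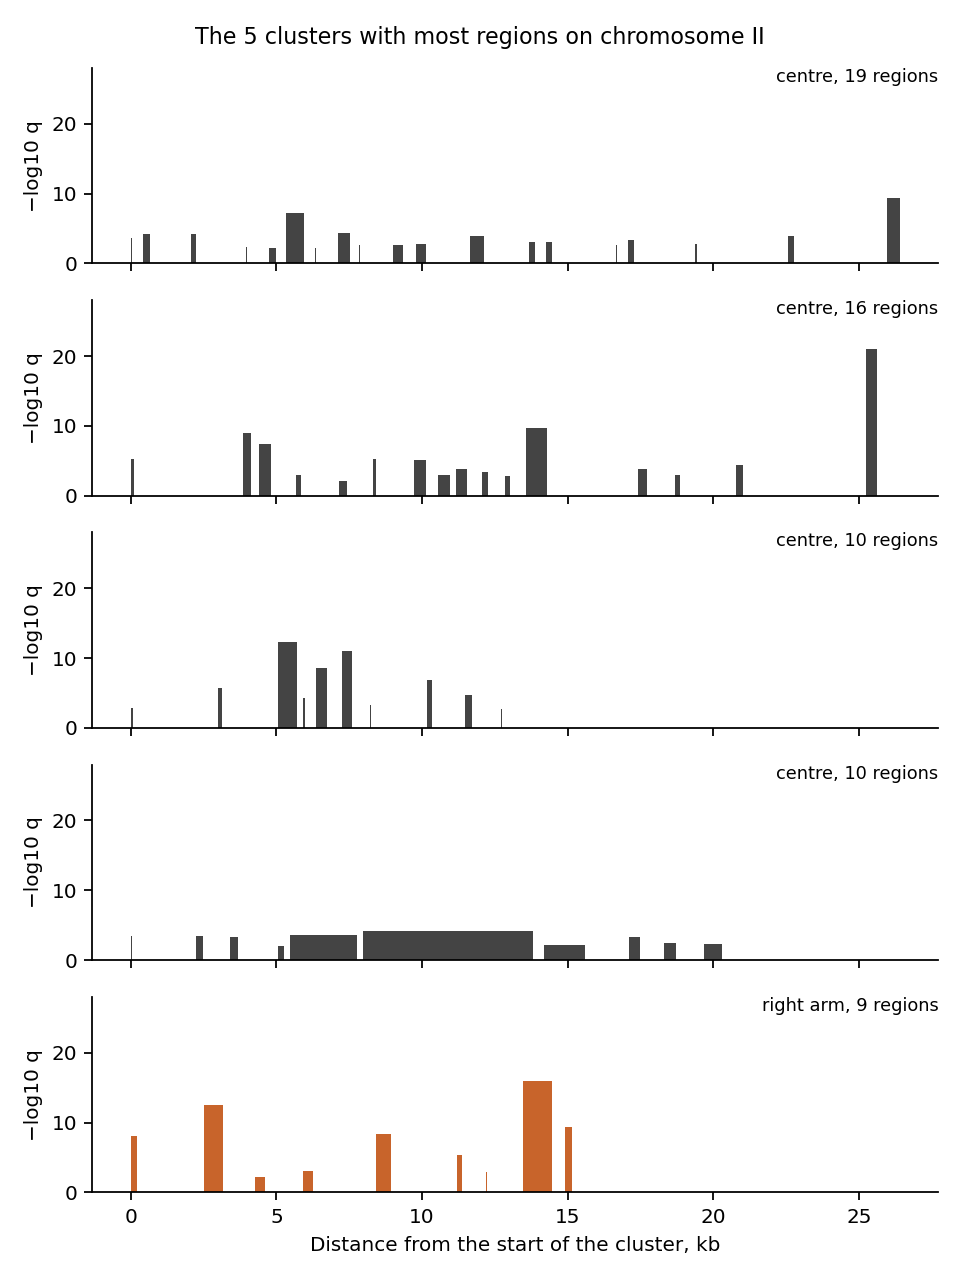
The 5 clusters with most regions on chromosome II. Each bar is a region, placed by its distance in kb from the start of the cluster, as wide as the region (drawn at least 30 bp wide) and as high as its strength (−log10 q); the fourth panel shows the wide, weak neighbours, whose strengths do not exceed 4.13.

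Beside the other chromosomes, II was intermediate in density, and its left zone had the lowest density relative to the central zone of the same chromosome. Chromosome II held 70.9 regions per Mb (exact Poisson interval 66.7 to 75.2), below I and III with 82.3 and 84.4 and above IV, V and X with 59.2, 51.8 and 61.1. Its median width of 159.5 bp was close to that of III, 157 bp, and below that of the 5 others together, 178 bp. When every chromosome was divided at the same fractions of its own span as II, the left zone of II had 0.584 times the density of its central zone. The ratios were 0.828 on I, 0.844 on III, 1.08 on IV, 0.929 on V and 0.963 on X. In regions per Mb, the left zone of II, with 49.2, lay beside that of V, with 48.2, and below the 59.5 to 75.4 of I, III, IV and X. For the right zone the ratio was 0.876 on II and from 0.857 to 1.10 on the others. In these right zones, the share among the best 10% of the list was 22.4% on I, 15.8% on II and from 7.51% to 9.80% on III, IV, V and X. These fractions are those of II and not the actual borders of the other chromosomes, and the differences between chromosomes were not tested.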

How the data were processed

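The authors deposited 1 combined list of 6672 regions, in which no column belongs to a sample. Positions are on WormBase WS180, per the file headers, and the regions came from PeakSeq, per the source column. Each q-value (an adjusted p-value) was deposited by the authors in 2 fields, which disagreed in 0 regions. All q-values were below 0.01. For the aligner, caller version, filters and merging of replicates, details were not given in the sources used here. Depth and replicate error are therefore unknown, and q-values also depend on depth. The shortest gap on chromosome II was 206 bp, and on each of the other chromosomes it was between 200 and 206 bp.

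Widths, midpoints, −log10 q, zone summaries, clusters and gaps were computed with Python 3.11.15, numpy 2.4.6, pandas 2.3.3 and scipy 1.17.1, and figures were drawn with matplotlib 3.10.9. Exact binomial (Clopper-Pearson), exact Poisson and, for medians, binomial order-statistic intervals were used at 95%. The Poisson and median intervals were tested on simulated lists, in which regions were placed independently of each other within each zone. The binomial intervals were not tested in this way. Named by rule were the 10 strongest regions, the 3 strongest of each zone, the 5 widest, the 5 largest clusters, the strongest cluster of each zone, the longest gaps, and the 3 richest and 3 poorest bins. Other named regions, such as weaker neighbours, those at a limit, those above 1 kb and the one at the chromosome end, were chosen after their values were seen. The members, zones and lists were chosen with earlier results of these data known. Alternatives changed the q-value limit, the joining of neighbours, the borders and the widths kept. The gene table at hand was of another assembly, WBcel235, and was not used.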

Additional observations from a re-analysis of the deposited data

How the results depend on the processing

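No paired analysis was possible because regions carry a single q-value and no value by replicate, and no replicate was left out for the same reason. Of 118 recomputed values whose reported value has a 95% interval, 90 stayed within it and 28 moved beyond it. These counts do not measure robustness, because some alternatives fix the outcome in advance. Leaving out the most crowded 50 kb window, which lies in the centre, cannot change the median strength or width of the arms. Taking 3 equal parts gives the centre a smaller span and so a smaller share. Where the alternative does not fix it, the cause of a move was not tested. The count of 219 clusters has no interval and became 165 with midpoints up to 2 kb apart and 225 with 10 kb. The left arm had the lowest density for its span in all 9 alternatives. The centre was densest in 8 of them, and with regions joined up to 2000 bp it held 51.3% of the regions and the left arm 25.1%. Moving both borders 250 kb outwards or inwards gave the centre 59.1% and 51.8% of the regions, or 1.18 and 1.19 times its share of the span. Of 3 equal parts, the central held 39.3% and the right 36.6%, and of covered bases the left arm held 19.0%.

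The highest median strength was in the right arm in 6 of 7 alternatives. Joining up to 2000 bp gave 3.98 in the centre and 4.20 in the right arm, and leaving out regions under 20 bp gave 3.72 in the centre. At 100 to 400 bp the medians were 4.39, 4.10 and 4.25 from left to right, so that the left arm was highest. Median widths under a q-value of 0.001 were 207.5, 220.0 and 211 bp from left to right, and after joining up to 2000 bp they were 163, 212 and 192 bp; without regions under 20 bp the centre had 183 bp. The left arm had the lowest median width in all 7 alternatives, and the right arm the highest share of the best 10% of q-values in all 7.

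With a q-value under 0.001, 49.1% of the regions in the centre and 48.4% in the right arm had a neighbour within 5 kb. The centre had 62.1% after joining up to 500 bp and 62.6% without regions under 20 bp. After joining up to 2000 bp, which removes close neighbours, the shares were 32.5%, 32.8% and 34.0% from left to right, so the order of the zones was not kept. Pearson's r of strength with width was 0.61 without regions of 1 kb or more. Leaving out the bin from 14 Mb was chosen after seeing the data. Unknown depth limits every statement on weak or absent regions.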
